A study of Caenorhabditis elegans with 3 samples.

Results

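The region examined is the part of the plasmid pTG96 that lies before the start codon of *sur-5* at position 3699, from base 1 on, and makes up 30.8% of the plasmid. It holds the sequence from which the reporter gene *sur-5::gfp* is transcribed. A junction is a pair of plasmid bases that single reads show side by side although the plasmid sequence does not join them in that way. It belonged to the region when both of its edges lay before the start codon. By this rule 243 of 1231 junctions were members, 205 of 809 in paired-end DNA, 14 of 50 in single-read DNA and 24 of 372 in RNA. They held 26119, 2536 and 562 reads, which is 31.3%, 33.7% and 0.165% of the reads in the 3 lists. No read count entered the rule.

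All 3 libraries came from the *Caenorhabditis elegans* strain HC566, in which an integrated, repetitive transgene array carries *sur-5::gfp*. Worms of mixed stages were grown at 20 °C in liquid with *Escherichia coli* OP50 as food, and genomic DNA gave a paired-end and a single-read library while poly-A RNA gave the third. There was 1 library per group, no strain without the transgene was analysed here, and nothing in the labels says whether the libraries came from the same culture. Each value below therefore describes 1 library, no difference between libraries was tested, and the intervals given are exact 95% intervals for counting error alone.

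*sur-5* encodes a protein related to acetoacetyl-CoA synthetases, and its upstream region drives expression in most somatic cells, which is why *sur-5::gfp* serves as a marker of transgenic worms. Many transcripts of *C. elegans* begin with an outron, a stretch upstream of the gene that ends in a 3′ splice site near the start codon and is exchanged for a short spliced leader. The same kind of 3′ splice site can also be joined to a 5′ splice site further upstream, and the bases between them are then removed as an ordinary intron. In repetitive arrays, plasmid copies can be joined in the same or in opposite directions, and a tail-to-tail join places both strands of a sequence in 1 molecule, so that a transcript across it can fold back into double-stranded RNA.

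The reads had been mapped by the submitters to pTG96 followed by its own reverse complement. A junction within a copy is termed a deletion in DNA, and deletion-like in RNA, where it can also be a splice. A junction from the plasmid to its reverse complement is termed an inversion, and only tail-to-tail joins can appear in this form. A junction is named by the plasmid positions of its joined bases, the first plasmid base being 1. *sur-5* lies on chromosome X by the RefSeq table for WBcel235, but the upstream bases were not placed on that genome here. Reads from the worm's own *sur-5* locus map to the same bases and cannot be told apart from those of the transgene.

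The following stretches flank the splice sites used by the RNA members and are shown because the RNA results turn on them. The first spans positions 3680 to 3709, with the 3′ splice site AG and the start codon ATG of *sur-5* in capitals, and a single base lies between them.
Acceptor before the start codon: tttacattttgttttcAGaATGaccgcagt
Each 5′ splice site on the sense strand is given as 10 bases before and 10 bases after the join, with GT in capitals, and both 3′ splice sites used within the region follow with AG in capitals.
Donor 194: gacccaacttGTtaaatatt
Donor 227: ataagatttaGTatgaacat
Donor 2323: tcattccctaGTaagttttt
Donor 2639: cgcgcaggcgGTaaacatac
Donor 3471: agtcaatgatGTtcgtctct
Donor 3508: cactgaaaagGTtttgaata
Acceptor 471: ttctttgaAGatcaatattt
Acceptor 2585: cacttttcAGtggacgtgtg
The antisense sites are written as their reverse complement, so that GT and AG again read from left to right.
Antisense donor 2545: gagaaaaaagGTtttttcta
Antisense donor 2650: ccactgcaacGTatgtttac
Antisense acceptor 1206: tttttttcAGcccagatatg

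The region also holds a long inverted repeat, a sequence followed further on by its own reverse complement, at 1750 to 1871 and 2204 to 2325. It is shown because the member with most reads in single-read DNA, the inversion from 1814 to 2260, lies on it. The second arm is written as its reverse complement, and capitals mark the 2 bases at which the arms of 122 bases differ.
Arm 1: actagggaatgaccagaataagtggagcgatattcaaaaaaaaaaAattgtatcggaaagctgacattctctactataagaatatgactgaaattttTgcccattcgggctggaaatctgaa
Arm 2: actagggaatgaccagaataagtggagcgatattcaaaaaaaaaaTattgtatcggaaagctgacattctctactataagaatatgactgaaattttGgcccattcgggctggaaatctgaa

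For the 5 inversions with most paired-end reads, and for 2 found in both DNA libraries, 30 bases around each joined edge are shown. The first line of each pair is the plasmid strand at the first edge and the other line the reverse complement at the second edge. Capitals mark the run of bases that is identical at both edges, within which the exact point of the join cannot be placed.
Inversion 270 to 522, first edge: gttgtttTTTTACACattttcgtagttgaa
Inversion 270 to 522, second edge: tttttaaTTTTACACctttttgctgttaat
Inversion 1347 to 1629, first edge: atatttctttTTTATGtattttgtccaggt
Inversion 1347 to 1629, second edge: tgtaaaatacTTTATGattgtcaactgttt
Inversion 3508 to 3671, first edge: aacttcactgaAAAGGTTTtgaatatctgg
Inversion 3508 to 3671, second edge: atgtaaagttcAAAGGTTTatccacagaaa
Inversion 1347 to 1611, first edge: atatttcttTTTTATgtattttgtccaggt
Inversion 1347 to 1611, second edge: tgtcaactgTTTTATataatttattcaacg
Inversion 741 to 848, first edge: tgttacaattgattaCTTTTTGGTatcatt
Inversion 741 to 848, second edge: agctccaggcatggcCTTTTTGGTcccgcc
Inversion 2380 to 2395, first edge: aactataaactacACATTTAaactgtaaat
Inversion 2380 to 2395, second edge: aaaatgatttccaACATTTAcagtttaaat
Inversion 1114 to 1232, first edge: cattcatTGTTTAATGtttcttcacatagc
Inversion 1114 to 1232, second edge: cgaaaagTGTTTAATGcgttgaaacaaaag

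Inversions made up most of the upstream junctions in DNA and none of those in RNA. Paired-end DNA held 186 inversions and 19 deletions, single-read DNA held 9 and 5, and RNA held 0 and 24. The inversion share was 90.7% of members in paired-end DNA (interval 85.9 to 94.3), 64.3% in single-read DNA (35.1 to 87.2) and 0% in RNA (0 to 14.2), with 0 of 562 reads. Over all junctions of each list the inversion share was 74.3% in paired-end DNA, 42% in single-read DNA and 37.1% in RNA. By reads, inversions took 92.0% of the members' reads in paired-end DNA and 91.9% in single-read DNA. Over the whole lists the read shares were 84.0% and 63.0%. Joins from the region to other parts of the plasmid are left out by the rule, in paired-end DNA 107 deletions and 47 inversions. By the simpler limit of 3 counts, which is not the exact interval above, a count of 0 in RNA allows inversions up to 12.5% of the members and up to 0.534% of their reads. Among the 9 RNA members with a splice motif, which had 306 reads, the share was also 0%, with a wider exact interval of 0 to 33.6.

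RNA inversions were present elsewhere on the plasmid. Of the 138 in the RNA list, 124 had both edges beyond the upstream region and 14 had 1 edge in it. Within *sur-5* 78 of 185 RNA junctions were inversions, and within *gfp* 12 of 63. In paired-end DNA the inversion share of the upstream region lay near that of the other parts, 93.7% in *sur-5*, 91.8% in *gfp* and 86.0% in the rest of the plasmid.

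**Figure D1:**
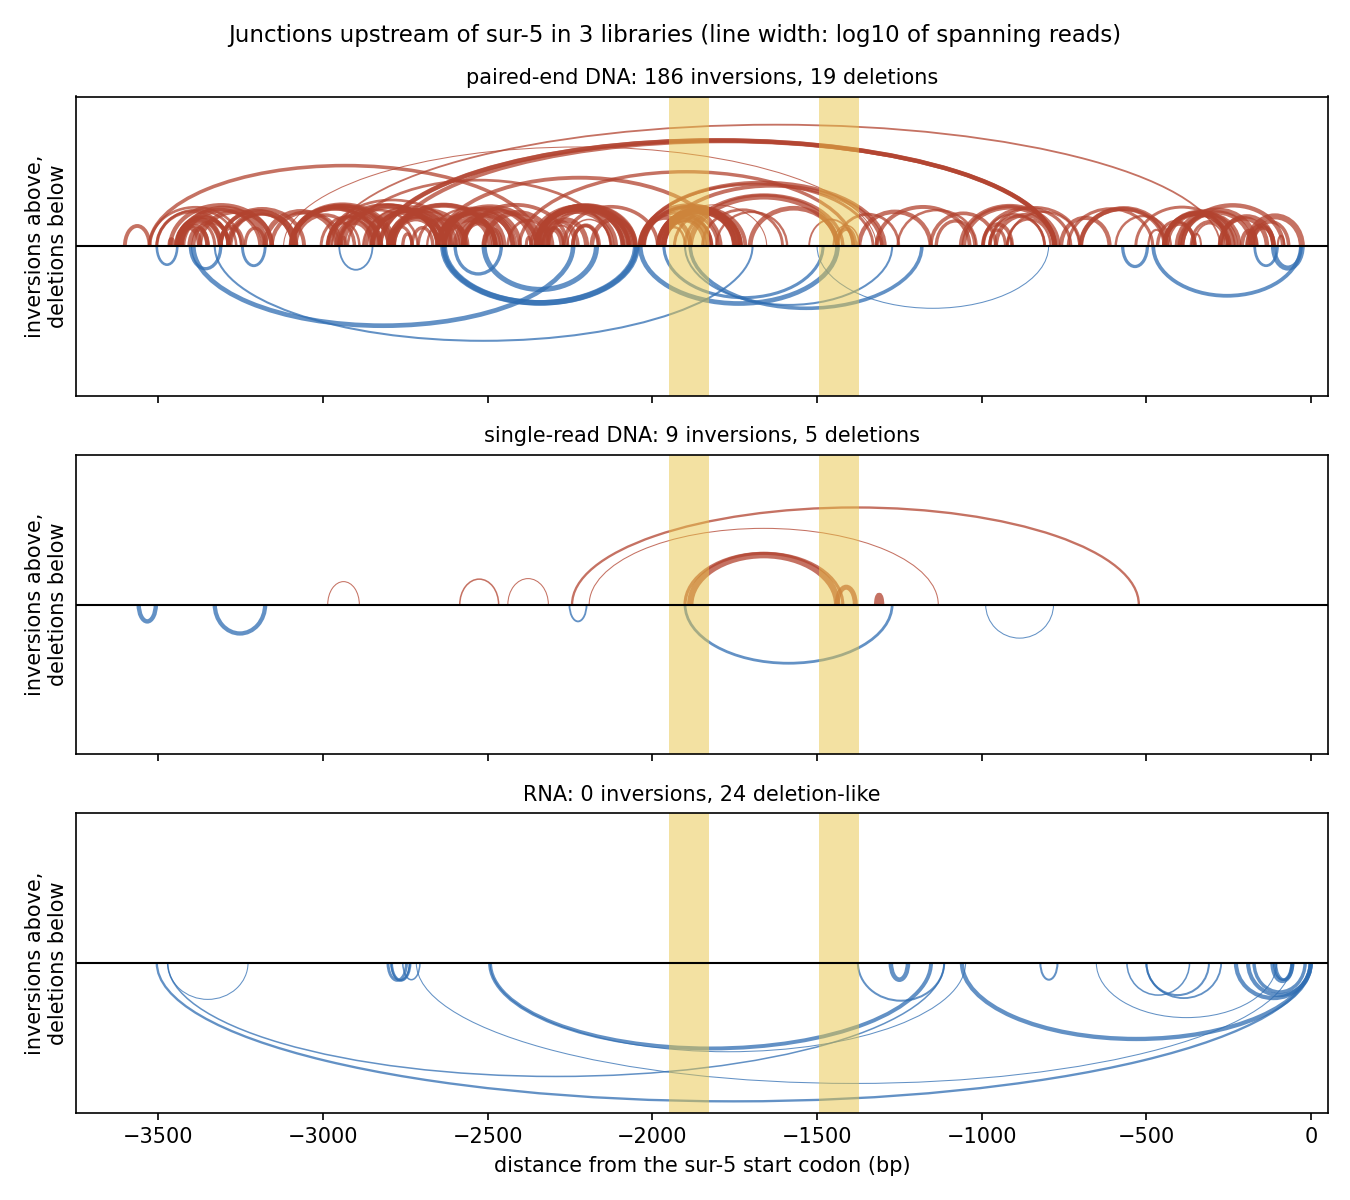
Each arc joins both edges of a junction in the region upstream of *sur-5*, with 1 panel per library. The x axis gives the distance from the start codon in bp, inversions are drawn above the line and deletions or deletion-like junctions below it, line width follows the logarithm of the reads, and shaded bands mark both arms of the long inverted repeat. Paired-end DNA shows 186 inversions over the whole region, 171 of them within 350 bp, single-read DNA 9 and RNA none.

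Paired-end inversions were short. The joined bases lay a median of 204.5 bp apart (quartiles 119 and 266, range 6 to 2699), and 171 of 186 lay within 350 bp, 91.9% (87.0 to 95.4). The corresponding share was 97.4% in *sur-5*, 95.6% in *gfp* and 86.0% over the whole paired-end list. The class from 250 to 300 bp held the most, 37 inversions with 9027 reads, followed by 36 with 4314 reads from 200 to 250 bp. Between 300 and 350 bp there were 9 inversions with 858 reads, and 15 inversions with 926 reads spanned more. In single-read DNA 5 of 9 inversions lay within 350 bp.

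**Figure D2:**
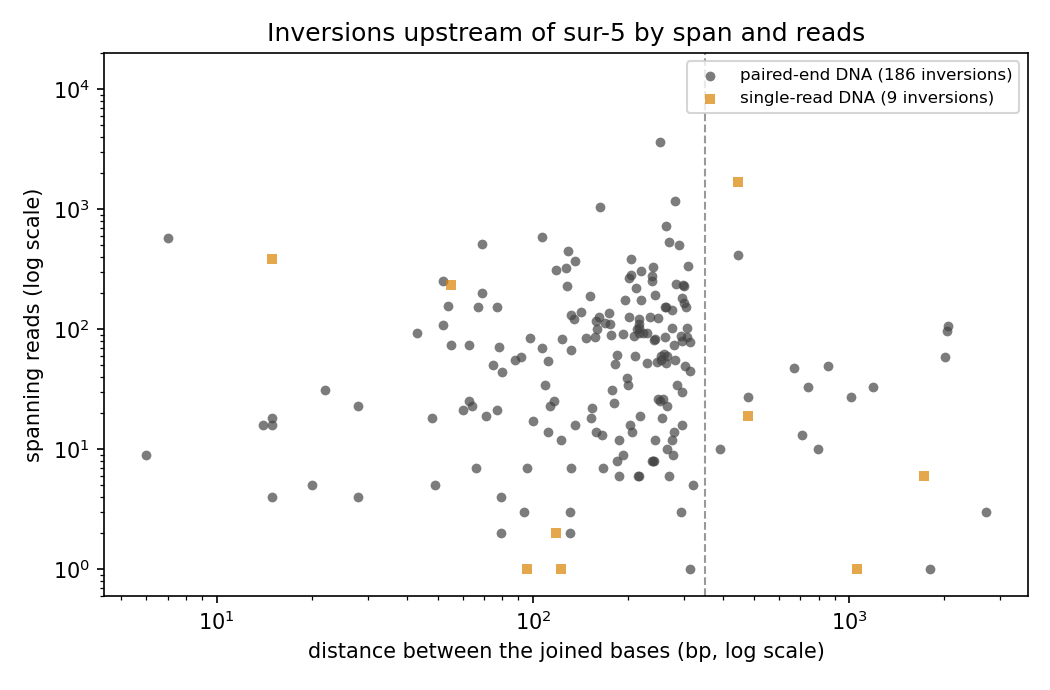
Each point is an inversion of the upstream region, with the distance between its joined bases in bp on a logarithmic x axis and its reads on a logarithmic y axis. Paired-end points fill the range up to the dashed line at 350 bp and thin out beyond it, while the inversion with most single-read reads, 1687, lies past the line.

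Reads were spread unevenly over the paired-end inversions. The median was 58 reads (quartiles 16.3 and 127, range 1 to 3597). Of the 186 inversions 62 had at least 100 reads and 29 had fewer than 10, and the 5 with most reads held 29.7% of all inversion reads. The leading inversion joined 270 to 522, which lie 3429 and 3177 bp before the start codon, with 3597 reads (3480 to 3717). The inversion from 1347 to 1629 had 1175 reads (1109 to 1244), and the one from 1347 to 1611, which shares its first edge, had 720 (668 to 775). The inversion from 3508 to 3671, close to the start codon, had 1045 reads (983 to 1110), and the one from 741 to 848 had 589 (542 to 639). None of these 5 was listed in single-read DNA or in RNA. The inversion from 235 to 242, whose joined bases are 7 bp apart, had 578 reads (532 to 627).

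The same base often took part in several inversions. The 372 inversion edges in paired-end DNA fell on 220 positions, of which 83 were used more than once and 8 at least 5 times. Base 1347 was joined in 9 inversions with 2875 reads, to partners from 1063 to 1647. Base 1048 was also joined in 9 inversions, with 1263 reads and partners from 727 to 1906. The 38 edges of the 19 paired-end deletions fell on 38 positions, but with so few edges the reuse cannot be compared between the classes. The mapper placed 182 of the 186 inversions, and all but 1 of the deletions, at splice motifs, which limits the bases listed as edges. The part of this in the reuse was not tested. Along the region, successive windows of 500 bp from position 1 held 41, 69, 81, 64, 24, 38, 39 and, in the shorter last window, 16 inversion edges. The window from 1001 to 1500 bp thus held the most, and the windows after 2000 each held fewer than the first.

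Runs of identical bases at the edges, the short homologies marked in capitals above, were frequent among the inversions with many reads. In paired-end DNA the inversions had a median of 3 identical bases and at most 51, and 16 had none. Runs of at least 5 bases were present in 62 of 186, 33.3% (26.6 to 40.6), against 35.1% over the whole paired-end list of inversions. These 62 held 72.6% of the inversion reads, against 72.0% over the whole list. The 5 inversions with most reads had runs of 6 to 9 bases. Among the paired-end deletions 6 of 19 had at least 5 identical bases, 31.6% (12.6 to 56.6) against 16.3% over the list, and held 90.0% of the deletion reads against 71.1%. In single-read DNA 4 of 9 inversions did, with 98.8% of the inversion reads, the same share as in the whole list. In RNA all 24 members had 2 identical bases or fewer, and 13 had none. Over all 234 deletion-like RNA junctions the median was 1, the most was 5, and 109 had none.

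The mapper looks for the splice motifs GT-AG, GC-AG and AT-AC beside a join, also in DNA, where they have no role in splicing. Of the paired-end inversions 126 were placed at AT-AC, 38 at GT-AG and 18 at GC-AG, and 4 had no motif. Where a join lies in a run of identical bases, the motif thus fixes which base of the run is listed, so that edges are exact only to within the run. Each of the 4 inversions without a motif skipped as many bases on the reference as a motif junction of the same list. Joins with no motif near them could therefore be missing from the lists, and how many was not tested. The region consists of 66.2% A and T, against 63.1% in *sur-5*, 63.4% in *gfp* and 54.0% in the rest of the plasmid. The part of base composition and of the motif search in the lengths of the runs was not tested.

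**Figure D3:**
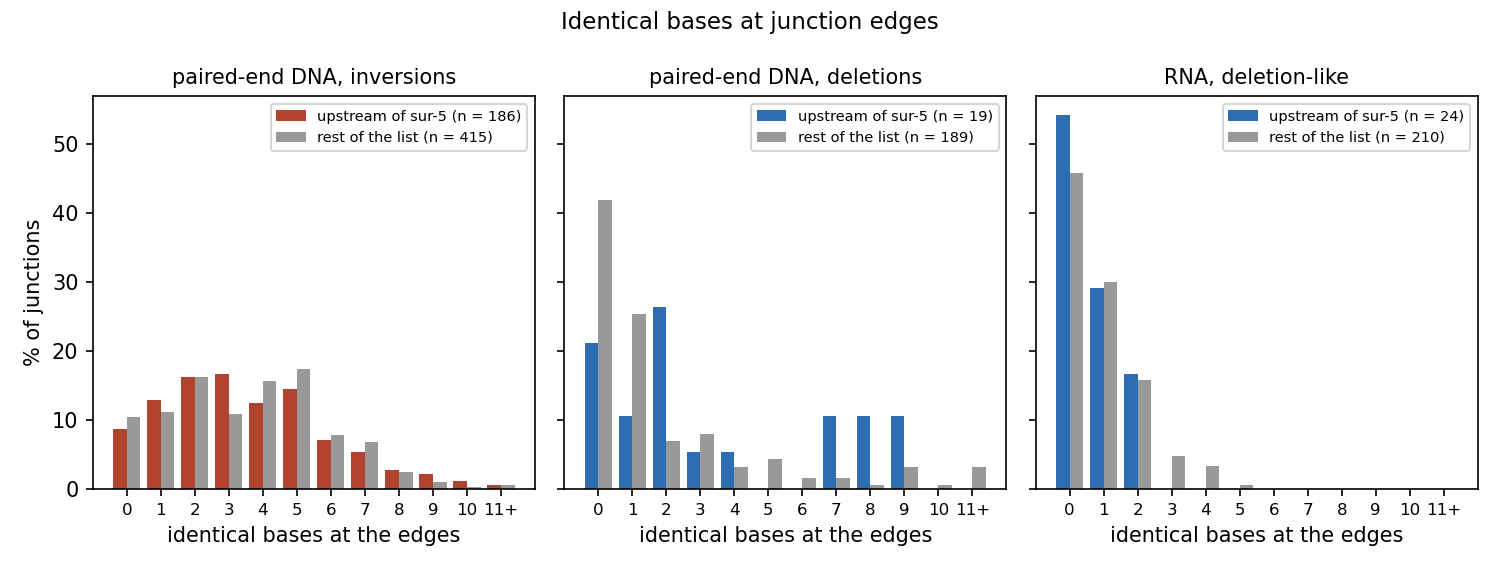
Bars give the percent of junctions by the number of identical bases at their edges, from 0 to 11 or more, for junctions upstream of *sur-5* and for the rest of the same list. The panels hold 186 against 415 paired-end inversions, 19 against 189 paired-end deletions and 24 against 210 deletion-like RNA junctions.

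Deletions were few, and their spans overlapped those of the inversions. The 19 in paired-end DNA had joined bases a median of 448 bp apart (range 62 to 1633), against 5335 bp over all deletions of that list, in which a deletion can reach across the whole plasmid. Their reads ranged from 1 to 535 with a median of 24. The leading pair, 1063 to 1648 with 535 reads and 1067 to 1652 with 467, skip the same 584 bp and lie within 1 run of 8 identical bases, so that both give the same joined sequence. The deletion from 1188 to 1529 had 302 reads (269 to 338) with 9 identical bases, the one from 3585 to 3672 had 278 with 9, and the one from 1662 to 2261 had 156 with 7. Counting shifted listings of 1 joined sequence once left 184 inversions and 18 deletions in paired-end DNA.

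Single-read DNA listed few upstream junctions, and its reads were concentrated in a few of them. Its leading inversion joined 1814 to 2260 with 1687 reads (1607 to 1769). The inversion from 2380 to 2395 followed with 382 reads (345 to 422) and the one from 2260 to 2315 with 232 (203 to 264). The inversions from 1798 to 2277 and from 1455 to 3176 had 19 and 6 reads, and each of the other 4 had 1 or 2. Among its deletions, 139 to 191 had 102 reads and no splice motif, 370 to 523 had 88 reads, 1798 to 2427 had 11, 1447 to 1499 had 3 and 2711 to 2917 had 1.

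Both DNA libraries listed 7 of the inversions, which is 3.76% of the paired-end and 77.8% of the single-read inversions. These 7 held 3.58% of the paired-end inversion reads and 99.7% of the single-read inversion reads. The order of the reads differed between the libraries. The inversion from 1814 to 2260 had 413 paired-end and 1687 single-read reads, and the one from 2260 to 2315 had 73 and 232. The inversion from 2380 to 2395, whose joined bases are 15 bp apart, had 16 paired-end reads (9.15 to 26.0) and 382 single-read reads. In the other direction, the inversion from 1114 to 1232 had 311 paired-end reads (277 to 348) and 2 single-read reads (0.242 to 7.22).

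The remaining shared inversions had few reads in either library. The inversion from 1798 to 2277 had 27 and 19 reads, the one from 1260 to 1383 had 12 and 1, and the one from 713 to 809 had 7 and 1. The single shared deletion, 1798 to 2427, had 4 paired-end and 11 single-read reads. No junction of either DNA library was shared with RNA. Total member reads were 26119 in paired-end and 2536 in single-read DNA, and the part of depth, read length and pairing in these differences was not tested.

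The long inverted repeat carried most of the single-read reads of the region and few of the paired-end reads. Its arms match at 120 of 122 bases (98.4%), differ at 1795 and 1847 of the first arm, are separated by 332 bp and fall into exact segments of 45, 51 and 24 bases. Members with an edge in an arm numbered 4 of 14 in single-read DNA, with 1949 reads or 76.9% (75.2 to 78.5) of the members' reads. In paired-end DNA they numbered 18 of 205, with 1598 reads or 6.12% (5.83 to 6.42). In RNA 1 member, with 4 reads, had an edge there.

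Of the 8 exact inverted repeats of at least 12 bases in the region, the 51-base segment held an inversion in which the sequence crosses from one arm to the other without gaining or losing a base, so that each base is followed by the match of its neighbour. None of the other 7 repeats held such an inversion in any library. They are not all separate pairs of arms. Among them are the segments of 45 and 24 bases of the same long repeat, and sequences of 14 and 12 bases that are their own reverse complement. Because the mapper looks for a splice motif beside a join, an inversion on a repeat without one could go unlisted. Which of these 7 repeats offer such a motif was not examined, so no conclusion is drawn from their lack of listed inversions. The inversion on the 51-base segment was that from 1814 to 2260, which has 51 identical bases, so that the join cannot be placed within the segment. It held 1687 of the 1949 single-read reads of members with an edge in an arm. Only reads that reach a differing base of the arms, or leave the arm, on both sides of the join tell it from an unrearranged arm. The junction lists do not give the number of such reads. The inversion from 1798 to 2277 also joins this segment to its match but is shifted by 1 base, has 1 identical base at its edges, and had 27 paired-end and 19 single-read reads. A shorter repeat of 10 bases, at 871 to 880 and 2913 to 2922, held the paired-end inversions from 871 to 2921 with 106 reads and from 873 to 2919 with 96, which give the same joined sequence.

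At the repeat some joins were listed in both classes. In paired-end DNA the deletion from 1662 to 2261, with 156 reads, and the inversion from 1662 to 1814, with 189 reads, continue from the same base into matching bases of opposite arms, with 65 arm bases after the join. Likewise the deletion from 1734 to 2217, with 17 reads, and the inversion from 1734 to 1858, with 83, continue into the arms with 109 bases left. The arms agree over the first 19 bases after the join in the first case and over the first 11 in the other, so only reads that reach a differing base of the arms, or leave the arm, tell the placements apart. How many did so cannot be read from the junction lists.

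The RNA members contained no inversion and a small set of joins with splice motifs. Of the 24, 9 had GT-AG ends and were listed on both copies of the reference, with 306 reads or 54.4% of the members' reads. The other 15 had no motif. Over all 234 deletion-like RNA junctions 67 had GT-AG ends and 151 had no motif, so the make-up of the members lay near that of the list. By the strand on which GT and AG read, 7 of them with 252 reads ran in the sense direction of *sur-5* and 2 with 54 reads in the antisense direction. The antisense share was 22.2% of these junctions (2.81 to 60.0) and 17.6% of their reads (13.5 to 22.4). The antisense share over the whole RNA list is not given here. The labels do not say whether the library kept the strand, so the direction rests on the motif alone.

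Sense joins ended mainly at the 3′ splice site directly before the start codon. The 4 junctions that joined to the base before the start codon had 245 reads in all (215 to 278), 43.6% (39.4 to 47.8) of the RNA members' reads. The donor at 2639 had 92 reads (74.2 to 113) and skipped 1058 bp, the donor at 3471 had 78 (61.7 to 97.3) and skipped 226 bp, and the donor at 3508 had 69 (53.7 to 87.3) and skipped 189 bp. The intervals of these 3 donors overlap. The donor at 194, which skipped 3503 bp, had 6 reads (2.20 to 13.1), fewer than any of the other 3. For scale, the first *sur-5* intron, from 3918 to 4073, had 11774 reads, so these 4 joins amounted to 2.08% of it. No DNA junction had an edge at that base. Reads that begin with the spliced leader do not appear as junctions on this plasmid and were not counted here.

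The other sense joins were rare. The acceptor at 2585 was joined from 2323 with 4 reads and from 227 with 2, and the acceptor at 471 was joined from 227 with 1 read. In the antisense direction the acceptor at 1206 was joined from 2545 with 53 reads (39.7 to 69.3), skipping 1338 bp, and from 2650 with 1 read. No DNA junction had an edge at 1206.

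**Figure D4:**
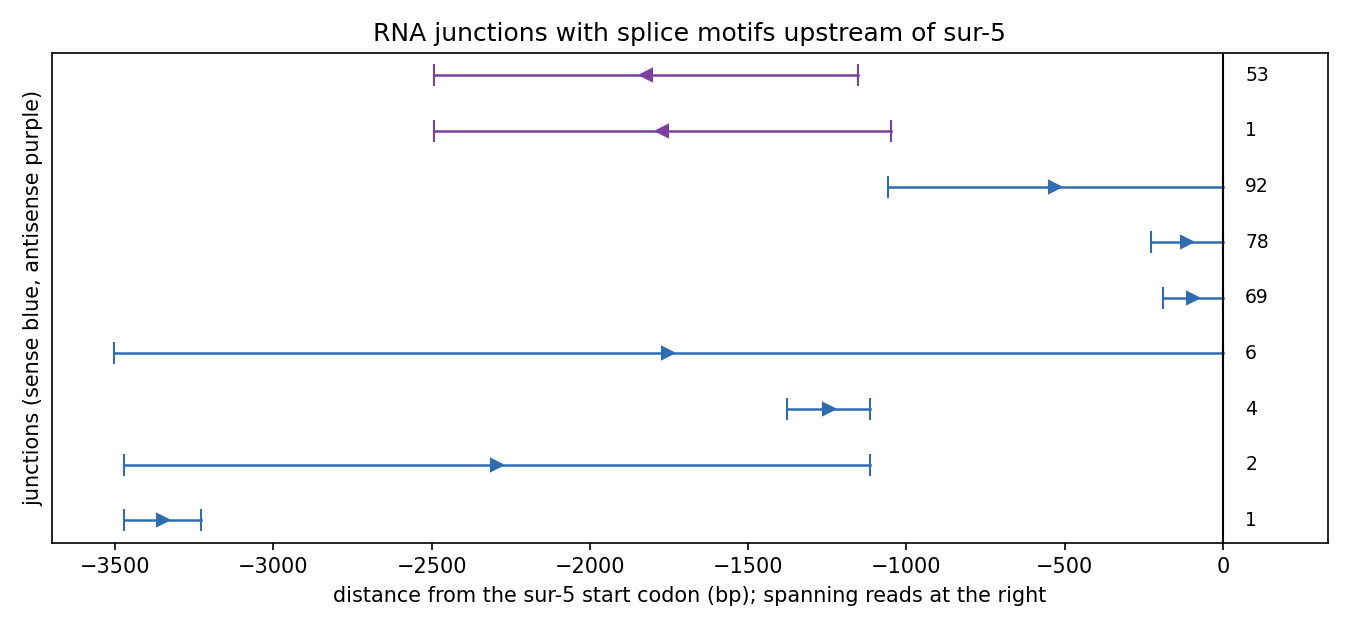
Lines show the 9 RNA junctions with splice motifs upstream of *sur-5*, from donor to acceptor, against the distance from the start codon in bp, with the reads of each at the right. Of the 7 sense junctions 4 end at the base before the start codon, with 92, 78, 69 and 6 reads, and both antisense junctions end at the same acceptor.

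Several of these splice sites were also joined to bases beyond the upstream region. The donors at 3508 and 3471 were joined to base 5604 with 20 and 12 reads, and the donor at 3508 to base 7180 with 1 read. Both of these bases start exons that follow *sur-5* introns. The antisense acceptor at 1206 was joined in 8 RNA inversions with 257 reads (227 to 290), more than the 54 reads it had within the region. Their other edges lay in *sur-5* for 4, in *gfp* for 3 and in the rest of the plasmid for 1. The leading ones were 6980 with 94 reads, 8133 with 75, 7974 with 31 and 6123 with 25. For 3 of the 8, with 127 reads, the other edge was the last base of an exon before a *sur-5* intron, namely 5183, 6123 and 6980. These 8 are among the 14 RNA inversions, with 276 reads, that had 1 edge in the upstream region.

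Some donors used in RNA coincided with edges of DNA junctions. Base 3508 was an edge of 2 paired-end junctions with 1199 reads, among them the inversion from 3508 to 3671, whose identical run AAAGGTTT spans the donor's GT. Base 3471 was an edge of 1 with 122 reads and base 194 of 3 with 36, among them the deletion from 194 to 256 with 9 reads. The mapper places joins at splice motifs where it can, and whether this alone makes such edges coincide was not tested. No other edge of the 9 spliced junctions occurred in the paired-end members, and none occurred in single-read DNA.

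The 15 RNA members without a motif had 256 reads and were each listed on 1 copy only. Every one of them skipped exactly as many bases as a motif junction elsewhere in the RNA list. The junction from 2423 to 2475 had 128 reads and skipped 51 bp, as did 4 more, 149 reads together. The junction from 3581 to 3643 had 40 reads and skipped 61 bp, and 3526 to 3681 had 27 and skipped 154. Those from 3140 to 3330 and from 3199 to 3389 skipped 189 bp, the length removed from the donor at 3508 to the start codon, and the one from 3199 to 3426 skipped 226 bp, the length removed from the donor at 3471. The deletions without motif in single-read DNA, at 139 to 191, 1447 to 1499 and 2711 to 2917, also repeated the length of a motif junction in their list. So did the single-read inversion without motif, from 1507 to 2567, and every paired-end member without one.

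The authors' deposited table of rearrangements lists 25 entries, of which 4 lie upstream of *sur-5*, all of them inversions. For the inversion from 270 to 522 the authors' deposited table gives 2149 reads at a mean coverage of 10245, or 21.0%, and the paired-end list gives 3597 reads, 1.67 times as many. For the inversion from 1347 to 1629 the authors' deposited table gives 840 reads, or 6.85% of the coverage, against 1175 in the list. For the one from 1347 to 1611 the authors' deposited table gives 400 reads, or 3.25%, against 720 in the list. The fourth entry, from 1732 to 2046, has 637 reads or 5.96% in the authors' deposited table and 1 read in the paired-end list. The inversion from 3508 to 3671, with 1045 reads in the list, is not among the entries of the authors' deposited table. Not given in the sources used here are the settings behind these counts. The authors' deposited table is for the whole series, whereas the list is that of the paired-end library. List counts are the higher of both mirror images, and with these summed the inversion from 270 to 522 had 6156 reads.

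Junctions with a single edge upstream of *sur-5* were of another make-up. In paired-end DNA 107 deletions with 3510 reads and 47 inversions with 3970 reads led from the region to another part of the plasmid, and 14 of those deletions and 41 of those inversions had a splice motif. Single-read DNA had 2 such deletions with 230 reads and 1 such inversion with 476 reads. RNA had 15 deletion-like junctions with 101 reads, 5 of them with a motif, and 14 inversions with 276 reads, 11 of them with a motif.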

How the data were processed

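Per the series' design text and the submitters' processing notes, the authors mapped reads with TopHat2 to pTG96 followed by its reverse complement. Not given in the sources used here were its version, its settings and the read lengths. The deposited junction lists hold read counts per junction, not normalized. The authors' deposited table gives the read count, the mean coverage signal and the percent of reads among that coverage for selected rearrangements.

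Edges were computed from the start, end and block sizes of each entry, and junctions with an edge before base 1 or beyond base 24012 were left out, 923 of 2045 in paired-end DNA, 6 of 80 in single-read DNA and 43 of 509 in RNA. Mirror images of 1 junction on both copies were joined, keeping the higher count. The deposited lists held 147406, 10351 and 616560 junction reads, which limits their precision, and reads are not independent molecules. The region, the members, the lists and the alternatives were chosen with earlier results of these data known.

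The start codon, the introns (at least 1000 RNA reads and GT-AG ends) and the limits of *gfp* were read from the deposited plasmid and from RNA junctions, with no genome annotation. Bases identical at both edges were counted outward from the join, and inverted repeats were searched for exact matches of at least 12 bases. Junctions named are the 5 with most reads per library and class, those in more than 1 library, RNA junctions that join to the base before the start codon, the 5 antisense RNA junctions with most reads and the authors' entries in the region. Others were chosen after their values were seen, as edges shared by most inversions, inversions on the repeats, splices beyond the region and the inversion from 235 to 242.

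Intervals at 95% are exact Poisson for counts and Clopper-Pearson for shares, for counting error only, and a count of 0 allows 3. With 1 library per group no test was made. Python 3.11.15, pandas 2.3.3, numpy 2.4.6, scipy 1.17.1 and matplotlib 3.10.9 were used, and the edge computation was checked on simulated data. Alternatives were motif junctions only, at least 5 reads, summed mirror reads, shifted edges joined, other minimum lengths of runs and repeats and, chosen after seeing the data, a minimum overhang and the joining of equal sequences.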

Additional observations from a re-analysis of the deposited data

How the results depend on the processing

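Of 60 values under alternative settings 50 stayed within their counting interval or 1.5 times the main count, 10 moved beyond it and none reversed. Summing the reads of mirror images gave 40015 member reads and an inversion read share of 93.3% in paired-end DNA, and 861 member reads in RNA. Keeping motif junctions only left 9 members with 306 reads in RNA and gave an inversion read share of 95.9% in single-read DNA. A minimum of 5 reads left 8 members in single-read DNA and 12 in RNA. Runs of at least 3 identical bases were present in 62.4% of the paired-end inversions, and runs of at least 8 in 6.45%. Requiring 20 bases on both sides of the join, and counting equal joined sequences once, were chosen after seeing the data and moved no value beyond those limits. Over the alternatives the paired-end members numbered 180 to 298, the single-read members 8 to 21 and the RNA members 9 to 33, and RNA inversions stayed at 0. No paired analysis was possible because each group holds 1 library. A junction absent from a list may still have had an expected count of up to 3 reads, and no list holds a skip under 50 bp on the reference.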
